A study of Mus musculus with 12 samples.

Results

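Ildr1, Cass4, Gas7, Chn2, Padi2, Lrrk1 and Ckb are 7 of the 43626 genes counted in mouse CD4+ T cells sorted by a reporter of Eomes, which encodes the T-box transcription factor EOMES. They were chosen by symbol because their change with the Eomes reporter, or their level in reporter-positive cells, differed between the donor genotypes. That choice used the values of these libraries, so the differences between genotypes given here describe the chosen genes and test nothing. The 7 genes are a mixed group: Cass4 is a scaffold of adhesion signalling, Ildr1 a junction receptor and Gas7 a membrane-binding adaptor, whereas Padi2, Lrrk1 and Ckb are enzymes and Chn2 regulates a GTPase.

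RNA was sequenced from 12 libraries in 4 groups of 3. All donor mice carried, at the Eomes locus, 1 conditional (flox) allele and 1 allele that reports expression by green fluorescent protein (GFP). Donors of genotype Eomes flox/GFP without cre are called Het, and donors of genotype Eomes flox/GFP with Lck-cre, a recombinase driven by a T-lineage promoter, are called KO. Naive CD45RBhi CD25- CD4+ T cells were sorted from donor spleens and injected into adult male Rag2-/- mice, which have myeloid cells but make no T or B cells. After 3 weeks the spleen of each of 6 recipients gave a GFP+ and a GFP- sort of CD4+ cells, so the groups are Het GFP-, Het GFP+, KO GFP- and KO GFP+. Within a genotype, libraries with the same replicate number came from the same recipient. Every group therefore carried the reporter allele, and no group had 2 unmodified Eomes alleles.

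EOMES is known in T cells for driving cytotoxic programmes, and in CD4+ T cells it marks a subset with cytotoxic features. CAS-family scaffolds such as CASS4 are phosphorylated after integrin engagement and recruit adaptors that pass the signal to small GTPases, among them Rac. Chimaerins switch Rac off, F-BAR proteins such as GAS7 bend membranes and bind actin regulators, and angulins such as ILDR1 are immunoglobulin-like receptors known from the corners where epithelial cells meet. PADI2 converts arginine residues of proteins to citrulline, LRRK1 is a kinase with a GTPase domain of the ROCO family, and CKB, the brain-type creatine kinase, regenerates ATP from phosphocreatine.

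The targeted gene was measured in every library first. Eomes stood at 9.19, 3.68 and 2.16 CPM (counts divided by the TMM-scaled library size, times 1000000) in Het GFP- replicates 1 to 3 and at 115, 123 and 89.8 in Het GFP+. In the KO it stood at 4.73, 1.95 and 2.19 in GFP- and at 46.6, 45.7 and 31.6 in GFP+. Thus all 6 GFP+ libraries lay above all 6 GFP- libraries, and the KO GFP+ libraries lay below the Het GFP+ libraries without reaching the GFP- level. Counts were made per gene, so reads from the deleted part of the conditional allele were not separated from the rest.

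Depth and other cells' transcripts differed between the sorts. Total counts ran from 11492908 to 18167236 in GFP- and from 2116894 to 8608902 in GFP+ libraries, which were made from 18000 to 117000 cells against 645000 to 2100000. The 4 features above 5% of counts in any library, among them mt-Rnr1 and mt-Rnr2, took 17.1% to 23.7% of GFP- libraries. They took 58.3% of Het GFP+ replicate 2 and 54.3% of KO GFP+ replicate 2, leaving 1818810 and 967089 counts. In the other GFP+ libraries they took 16.3% to 30.9%. The summed level of 8 CD4 T cell markers was 2348 to 2860 CPM in Het GFP-, 1748 to 1945 in Het GFP+, 2425 to 2670 in KO GFP- and 1668 to 2131 in KO GFP+, and Cd3e and Cd4 were present throughout. The summed level of 15 myeloid markers, none of them at 0, was 202, 784 and 1634 CPM in Het GFP-, 525, 2299 and 3847 in Het GFP+, 138, 646 and 48.8 in KO GFP-, and 631, 1366 and 322 in KO GFP+. It was higher in the GFP+ library of 6 of 6 recipients, as were the sums of 6 erythroid markers (4.02 to 86.6 CPM in GFP-, 20.9 to 208 in GFP+) and of 10 dissociation stress genes (416 to 835 CPM in GFP-, 651 to 992 in GFP+). NK, B and CD8 T cell markers summed to at most 12.0, 2.12 and 4.57 CPM in any library. On the first principal component (42.4% of variance), KO GFP+ replicate 1 (-17.8) fell within the range of the GFP- libraries (-64.6 to -17.0), while the other GFP+ libraries lay between 29.6 and 85.4.

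The 7 genes lie on 7 chromosomes (GRCm38). Ildr1 (ENSMUSG00000022900.10) spans chromosome 16 from 36693978 to 36726804 on the plus strand. Cass4 (ENSMUSG00000074570.9) spans chromosome 2 from 172393794 to 172433757, Gas7 (ENSMUSG00000033066.11) chromosome 11 from 67455437 to 67688990, Chn2 (ENSMUSG00000004633.13) chromosome 6 from 54039554 to 54301810, and Padi2 (ENSMUSG00000028927.6) chromosome 4 from 140906344 to 140952586, all on the plus strand. Lrrk1 (ENSMUSG00000015133.12) spans chromosome 7 from 66226912 to 66388350 and Ckb (ENSMUSG00000001270.8) chromosome 12 from 111669355 to 111672338, both on the minus strand. Counts covered exons only. Annotated genes on the opposite strand share exonic bases with Cass4 (Gm14455, 1130 bases, 0 to 4 counts per library) and Padi2 (Gm13031, 149 bases, 0 to 6 counts). Glp2r at Gas7 and 9130019P16Rik and Gm15527 at Chn2 had 0 counts in every library.

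T-box factors bind DNA through a short core, so the 250 bases upstream of the annotated starts were searched for AGGTGT on both strands. RefSeq promoters (GRCm38.p6) were found for 6 of the 7 genes, 9 promoters in all, and none was listed for Gas7. A core stood in 1 of the 9, that of Cass4, and in 3887 of all 32851 promoters (11.8%). The longer half-site AGGTGTGA, which contains the core, was in none of the 9 and in 1.12% of all promoters. The upstream sequences of Cass4 (chr2:172393394-172393643, plus strand) and Ildr1 (chr16:36693728-36693977, plus strand) are shown because the first holds the core and the second does not. In the interaction of reporter and genotype Ildr1 ranked 3 and Cass4 ranked 4, with opposite signs and without a call by edgeR. The core is in capitals:
Cass4: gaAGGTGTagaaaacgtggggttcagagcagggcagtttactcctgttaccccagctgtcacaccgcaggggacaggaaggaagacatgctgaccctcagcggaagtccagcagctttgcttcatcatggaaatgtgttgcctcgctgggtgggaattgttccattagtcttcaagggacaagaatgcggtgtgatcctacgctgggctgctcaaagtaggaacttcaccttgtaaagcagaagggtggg
Ildr1: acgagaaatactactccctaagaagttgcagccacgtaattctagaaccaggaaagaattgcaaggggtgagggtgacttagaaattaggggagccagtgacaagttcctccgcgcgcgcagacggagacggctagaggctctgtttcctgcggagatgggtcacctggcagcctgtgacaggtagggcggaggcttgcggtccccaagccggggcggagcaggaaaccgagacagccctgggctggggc
The core of Cass4 lies 243 to 248 bases upstream of the start, on the strand of the gene, and the Ildr1 window holds no such letters. A match of this kind is a description of the sequence, and binding was not measured.

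Ildr1 was higher in GFP+ than in GFP- cells of Het origin and lower in GFP+ cells of KO origin. Its levels in replicates 1 to 3 were 12.2, 12.6 and 8.12 CPM in Het GFP- and 28.7, 22.6 and 34.5 CPM in Het GFP+. In KO cells they were 8.88, 12.3 and 9.68 CPM in GFP- and 6.16, 2.86 and 3.77 CPM in GFP+, the last 3 from 58, 4 and 32 reads. All Het GFP+ libraries thus lay above every other library and all KO GFP+ libraries below every other library. Inside recipients, the log2 change from GFP- to GFP+ was 1.22, 0.84 and 2.06 in Het and -0.52, -2.04 and -1.32 in KO. The fitted difference between Het GFP+ and KO GFP+ was 2.65 (SE 0.31) on the log2 scale. Because these are bulk samples, fewer cells with a transcript and less transcript per cell cannot be told apart, here or in the results that follow.

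Cass4 had the opposite pattern. Its levels were 32.9, 21.3 and 22.8 CPM in Het GFP- and 8.0, 7.03 and 5.84 CPM in Het GFP+. In KO cells they were 22.3, 36.6 and 28.1 CPM in GFP- and 26.6, 48.5 and 33.7 CPM in GFP+. The 3 Het GFP+ libraries were the lowest of the 12, and the KO libraries of both sorts overlapped. Within recipients the log2 change was -2.02, -1.58 and -1.93 in Het and 0.25, 0.41 and 0.26 in KO, so every KO recipient had slightly more Cass4 in its GFP+ cells. The fitted difference between Het GFP+ and KO GFP+ was -2.35 (SE 0.29).

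Gas7 was high in a single group. It stood at 24.4, 30.4 and 27.1 CPM in Het GFP- and at 84.1, 99.1 and 85.0 CPM in Het GFP+. In KO cells it stood at 37.0, 18.5 and 23.6 CPM in GFP- and at 27.6, 31.4 and 22.4 CPM in GFP+. The Het GFP+ libraries lay above all 9 others, which overlapped one another. Within Het recipients the log2 change was 1.78, 1.70 and 1.64, the narrowest spread of the 7 genes (SD 0.07, n = 3), whereas the KO recipients gave -0.42, 0.75 and -0.08. In GFP+ cells, Het exceeded KO by 1.74 (SE 0.24, log2).

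Chn2, which encodes beta-chimaerin, differed between the genotypes by similar amounts in both sorts, and by less between the sorts. Its levels were 16.8, 10.7 and 8.34 CPM in Het GFP- and 19.9, 16.0 and 12.7 CPM in Het GFP+. In KO cells they were 27.4, 39.2 and 35.1 CPM in GFP- and 52.5, 51.4 and 48.5 CPM in GFP+. All 6 KO libraries lay above all 6 Het libraries. Het minus KO was -1.65 (SE 0.27) on the log2 scale in GFP+ and -1.51 (SE 0.26) in GFP- cells, and the interaction of reporter and genotype was -0.14 (SE 0.36). The name EOMES-dependent therefore covers a different pattern for Chn2 than for the other 6 genes, since its KO level was higher also where Eomes stood at 1.95 to 9.19 CPM.

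Padi2 differed between the sorts in opposite directions in Het and KO, as Ildr1 did, but by less. Its levels were 37.2, 27.3 and 34.3 CPM in Het GFP- and 101, 51.9 and 48.9 CPM in Het GFP+. In KO cells they were 38.4, 37.5 and 34.9 CPM in GFP- and 26.9, 27.8 and 22.7 CPM in GFP+. The Het GFP+ libraries lay above all others and the KO GFP+ libraries below the KO GFP- libraries, with Het GFP+ replicate 1 apart from its group. The log2 change was 1.44, 0.92 and 0.51 in Het recipients and -0.51, -0.43 and -0.61 in KO recipients. Het GFP+ exceeded KO GFP+ by 1.40 (SE 0.26, log2).

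Lrrk1 was higher in GFP+ than in GFP- cells of both genotypes, by more in Het. It stood at 19.7, 13.3 and 25.4 CPM in Het GFP- and at 127, 103 and 80.8 CPM in Het GFP+. In KO cells it stood at 32.1, 20.7 and 24.7 CPM in GFP- and at 53.4, 38.5 and 47.5 CPM in GFP+. The 3 groups Het GFP+, KO GFP+ and GFP- did not overlap, in that order from the highest. The log2 change was 2.68, 2.93 and 1.66 in Het recipients and 0.73, 0.89 and 0.94 in KO recipients, and Het GFP+ exceeded KO GFP+ by 1.14 (SE 0.26, log2). In the authors' deposited table of the KO comparison, Lrrk1 was the only one of the 7 genes listed, with a log2 fold change of 0.78, an SE of 0.24 and an adjusted p of 0.0376.

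Ckb followed the same order as Lrrk1 with the sign turned. Its levels were 36.4, 32.5 and 43.3 CPM in Het GFP- and 6.0, 2.73 and 5.16 CPM in Het GFP+, the latter from 45, 7 and 53 reads. In KO cells they were 20.1, 32.8 and 32.8 CPM in GFP- and 12.6, 14.3 and 18.3 CPM in GFP+. All Het GFP+ libraries lay below all KO GFP+ libraries, and these lay below all 6 GFP- libraries. The log2 change was -2.57, -3.49 and -3.03 in Het recipients and -0.66, -1.19 and -0.84 in KO recipients. Het GFP+ minus KO GFP+ was -1.63 (SE 0.29, log2).

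**Figure D1:**
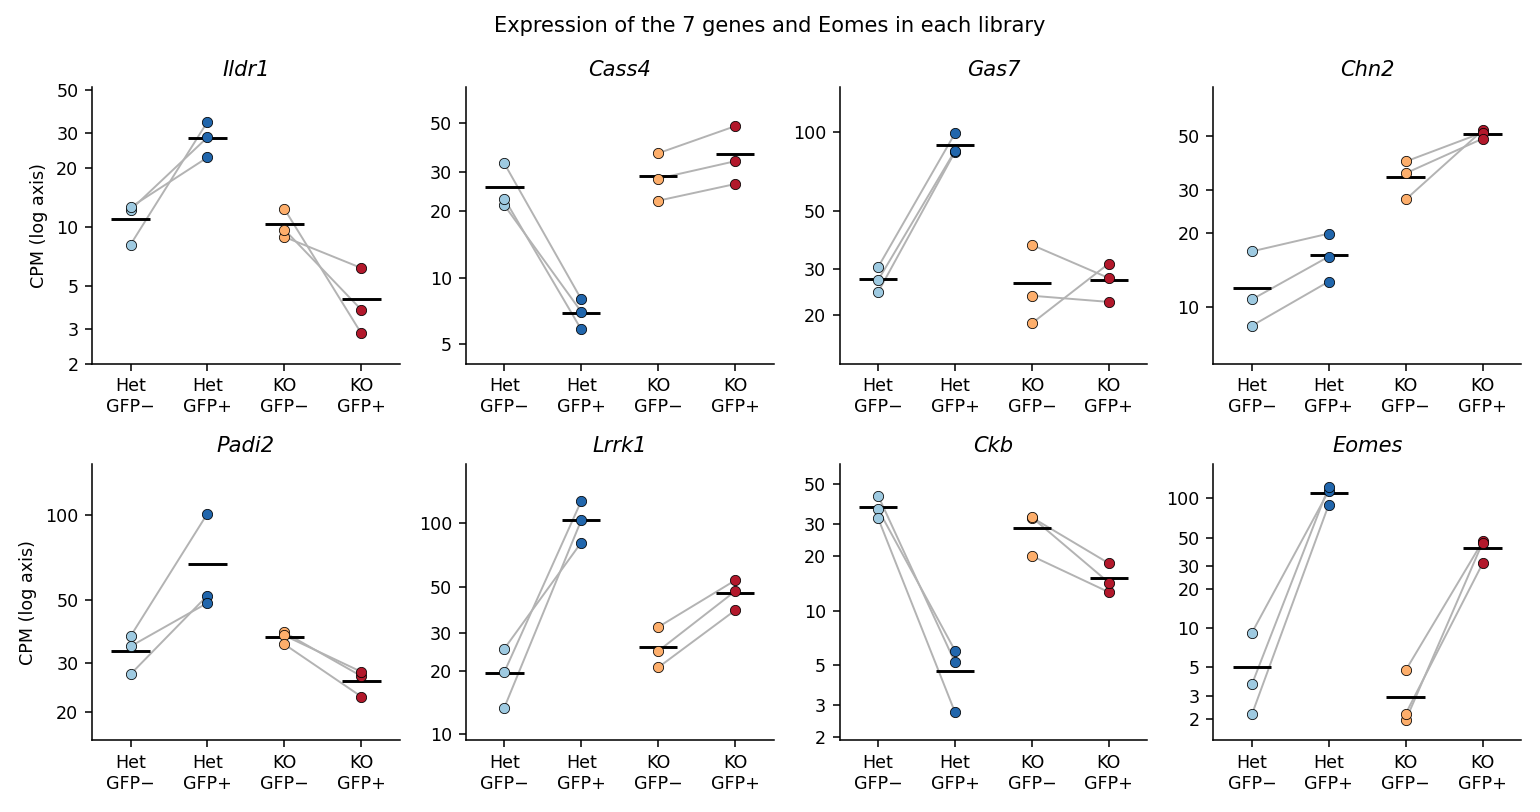
Level of each of the 7 genes and of Eomes in the 12 libraries, in TMM-scaled CPM on a log axis; points are libraries, bars are means of 3, and grey lines join the GFP- and GFP+ libraries of the same recipient. Ildr1 stands at 8.12 to 12.6 CPM in Het GFP- and at 22.6 to 34.5 CPM in Het GFP+, while for Chn2 all KO libraries lie above all Het libraries.

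**Figure D2:**
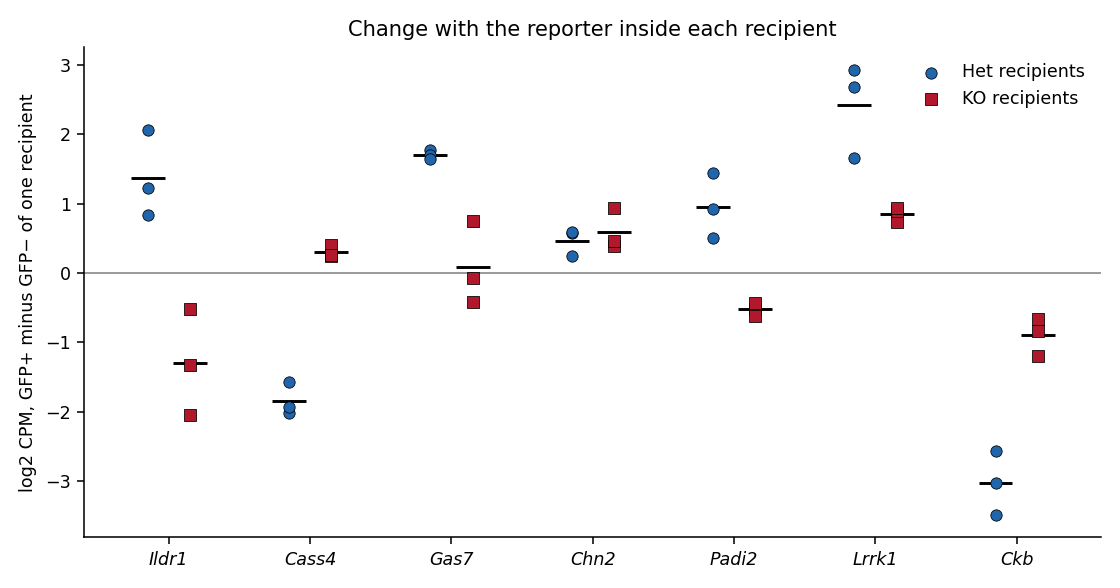
Difference in log2 CPM between the GFP+ and GFP- library of each recipient (y axis) for the 7 genes; circles are Het recipients, squares KO recipients and bars means of 3. Among the 7 genes, Het and KO recipients overlap for Chn2 only. These values include those that chose the genes, so the separation of the others restates that choice. Its share over all genes was not counted.

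Per kilobase of exon, which allows levels of different genes to be compared, Ckb led in GFP- cells with 25.3 ± 3.71 CPM per kilobase in Het and 19.3 ± 4.97 in KO (SD, n = 3). The other 6 genes stood between 2.05 and 6.57 in Het GFP- cells. In Het GFP+ cells the order began with Padi2 at 13.4 ± 5.88 and Lrrk1 at 10.9 ± 2.44 CPM per kilobase, which did not differ beyond their spread, followed by Gas7 at 7.88 ± 0.743 and Ildr1 at 6.65 ± 1.38, again within their spread. Ckb (3.13 ± 1.15), Chn2 (2.82 ± 0.629) and Cass4 (1.30 ± 0.203) were lowest. In KO GFP+ cells Ckb (10.2 ± 1.96) and Chn2 (8.84 ± 0.355) led, with Cass4 at 6.80 ± 2.10, Padi2 at 5.15 ± 0.541, Lrrk1 at 4.90 ± 0.790 and Gas7 at 2.39 ± 0.400, and Ildr1 was lowest at 0.992 ± 0.398.

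In GFP+ cells the 3 Het libraries and the 3 KO libraries did not overlap for any of the 7 genes, against 7.48% of the 13238 genes tested, and 4 of the 7 were called by edgeR at a false discovery rate (FDR) of 0.05, against 0.106% of genes. Both counts restate how the genes were chosen. The number called was 1 or 2 with any single library left out, 0 from those 6 libraries fitted alone and 7 by DESeq2 (0.7% of genes). Gas7 and Chn2 were not called in any of the 6 fits that left a library out. By rank in that contrast, the called genes ended with Gm47283 (-2.03) and Klrb1f (-1.85), while Timp2 (-1.09), Gpr155 (1.15) and Lpin1 (1.59) stood just beyond the threshold on the log2 scale. Padi2, Lrrk1 and Ckb were beyond it too. In the interaction Ildr1 (2.56, SE 0.40) and Cass4 (-2.17, SE 0.39) ranked 3 and 4 of all genes, behind Zfp683 and Crybg2. Zfp683 was the only gene called there (0.00755%). A fit blocked on recipient called 10 (0.0755%), among them 2 of the 7, Cass4 (-2.21, SE 0.23) and Ckb (-2.11, SE 0.28). Within KO, edgeR called 0 of the 7 (0.128% of genes) and, with the block, 4 (Ildr1, Chn2, Lrrk1 and Ckb; 17.7% of genes). The authors' deposited table of the GFP+ comparison lists 77 genes, all 7 among them.

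Outside the reporter-positive cells, the genotypes were compared in GFP- libraries, which share no library with the GFP+ contrast but do enter the interaction. They came from the same recipients as the GFP+ libraries, and libraries of one recipient deviated together (r 0.241 to 0.617). This contrast is therefore not independent of the choice of genes, Chn2 included. By edgeR's quasi-likelihood test 0 of the 7 genes and 0 of 13238 genes (0%) were called, with 695 genes at an unadjusted p under 0.05. DESeq2 called 45 genes (0.331%) and limma-voom 2. Among the 7, Chn2 came nearest: it ranked 5 of 13238 at -1.51 (SE 0.26, FDR 0.154), its GFP- groups did not overlap (11.3% of genes did not), and DESeq2 called it (FDR 0.000212). Its FDR ran from 0.000212 to 0.639 over 15 alternatives, with 4 calls. For the other 6 genes Het minus KO lay between -0.41 (Lrrk1, SE 0.25) and 0.39 (Ckb, SE 0.25), with FDRs of at least 0.979 and overlapping groups.

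**Figure D3:**
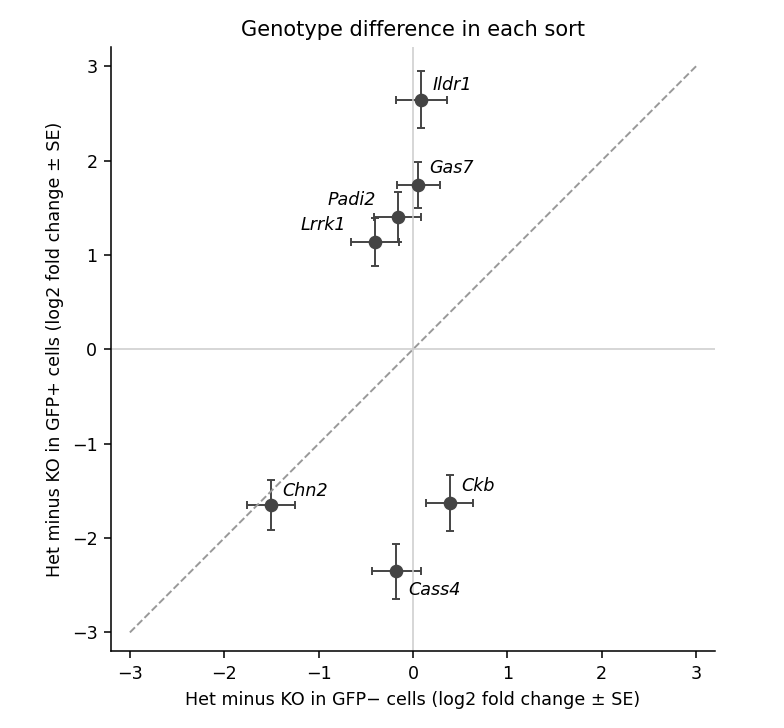
Het minus KO as a fitted log2 fold change with its SE, in GFP- cells (x axis) and in GFP+ cells (y axis); each point is a gene and the dashed line marks equal differences in both sorts. Chn2 lies by the line at -1.51 and -1.65, while the other 6 genes lie between -0.41 and 0.39 on the x axis.

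The mean change with the reporter over both genotypes is a contrast orthogonal to those that chose the genes, but it is built from the same libraries, and a change in Het alone enters both it and the interaction. The count of calls is therefore given as a description. By edgeR's quasi-likelihood test, 4 of the 7 were called at FDR 0.05, 2 higher and 2 lower in GFP+ cells, against 18.1% of all genes tested (9.91% higher and 8.18% lower). Ckb fell by 1.92 (SE 0.20, FDR 0.000416) on the log2 scale and was lower in 6 of 6 recipients, ranking 12 of 13238, and Lrrk1 rose by 1.64 (SE 0.18, FDR 0.000724) in 6 of 6 recipients, ranking 19. Gas7 averaged 0.86 higher (SE 0.17, FDR 0.00893), a mean of 1.71 (SE 0.23) in Het and 0.02 (SE 0.24) in KO. Cass4 averaged -0.80 (SE 0.19, FDR 0.0206), a mean of -1.89 (SE 0.29) in Het and 0.28 (SE 0.26) in KO, and its FDR was 0.0548 without KO GFP+ replicate 3, the highest of 21 alternatives (lowest 0.000406). For Gas7 and Cass4 a called mean thus did not mean the same direction in every recipient: Gas7 was higher in GFP+ cells of 4 of 6 and Cass4 lower in 3 of 6. Directions were the same in every recipient for 3 of the 7 (Chn2, Lrrk1 and Ckb; 37.6% of all genes), and opposite between all Het and all KO recipients for 3 (Ildr1, Cass4 and Padi2; 1.21% of all genes), a count that the choice of genes used.

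Of the other 3 genes, Chn2 was higher in GFP+ cells of 6 of 6 recipients, by 0.51 (SE 0.18, FDR 0.0660). With the recipient fitted as a block it was called (0.54, SE 0.12, FDR 0.00483), as were 41.1% of all genes against 18.1% without the block. Chn2 was also called by DESeq2 (FDR 0.043, with 23% of all genes called), and without Het GFP- replicate 1 (FDR 0.0235) or Het GFP+ replicate 3 (FDR 0.0381). Its FDR ran from 0.00483 to 0.171 over 21 alternatives, with 6 calls. Padi2 (0.26, SE 0.18, FDR 0.312) and Ildr1 (0.11, SE 0.20, FDR 0.707) did not pass, and their Het and KO changes had opposite signs: 1.04 (SE 0.25) and -0.53 (SE 0.26) for Padi2, 1.39 (SE 0.27) and -1.17 (SE 0.30) for Ildr1. The myeloid, erythroid and stress sums moved with the reporter too, and their part in these changes was not tested.

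**Figure D4:**
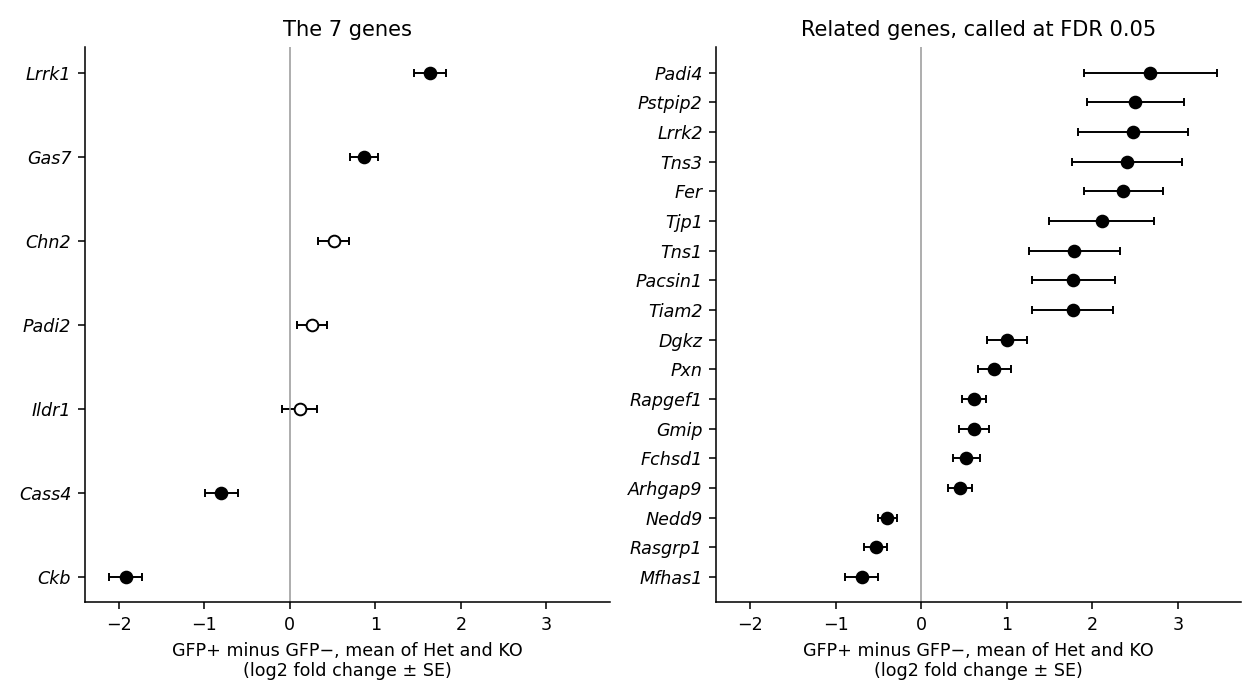
Mean log2 fold change of GFP+ over GFP- cells across both genotypes, with its SE, for the 7 genes (left) and for related genes called at FDR 0.05 and named in the text (right); filled points are called and open points are not. Ckb lies at -1.92 and Lrrk1 at 1.64, and the related genes run from -0.70 (Mfhas1) to 2.68 (Padi4).

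To place the 7 genes among their relatives, 88 further genes were listed by family or pathway, of which 68 had enough reads to be tested. None was called between Het GFP+ and KO GFP+ (0.106% of all genes), between the GFP- groups or in the interaction by edgeR, and none in the interaction with the recipient block. At an unadjusted p under 0.05 there were 5, 6 and 3 in these comparisons by edgeR. DESeq2 called Srgap3 between the GFP+ groups (3.16, FDR 0.000315) and 1 gene between the GFP- groups, and limma-voom called 0 in each. For the mean change with the reporter, 19 of 68 (27.9%) were called, 16 higher and 3 lower, against 18.1% of all genes. With the recipient block it was 38, 28 higher and 10 lower (55.9% against 41.1%). The count moved with single libraries left out: it was 5 without Het GFP- replicate 2 or KO GFP- replicate 1. It was 7 without Het GFP+ replicate 2, KO GFP- replicate 3 or KO GFP+ replicate 3. Without KO GFP+ replicate 2 it was 8, and without KO GFP+ replicate 1 it was 33. Among these fits, calls over all genes were likewise fewest without Het GFP- replicate 2 and most without KO GFP+ replicate 1, as given in the closing section.

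Among CAS-family and focal adhesion genes, 4 of 19 tested were higher and 1 lower, and the median of the 19 was 0.21 against -0.02 for all genes. Paxillin (Pxn), a partner of CAS proteins, went from 77.1 ± 11.2 CPM in Het GFP- to 148 ± 12.2 in Het GFP+ and from 76.8 ± 9.57 to 134 ± 64.9 in KO (0.86, SE 0.19, FDR 0.0160). Rapgef1, a guanine nucleotide exchange factor that binds Crk adaptors, rose by 0.62 (SE 0.14, FDR 0.0174), and the tensins Tns1 (1.79, SE 0.53) and Tns3 (2.40, SE 0.64) rose from below 5 CPM. Tns3 reached 21.6 ± 10.4 CPM in Het GFP+ and 12.9 ± 13.7 CPM in KO GFP+. The part of myeloid transcripts in the changes of this list was not tested. Nedd9, the lymphocyte-type CAS protein, fell by 0.40 (SE 0.11, FDR 0.0327), from 201 ± 9.90 to 152 ± 22.0 CPM in Het and from 237 ± 20.8 to 180 ± 22.8 CPM in KO. Nedd9 was lower in the GFP+ cells of 6 of 6 recipients. Bcar1, Efs and Ptk2 were too low to test.

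Among angulins and tight junction genes 2 of 4 tested were higher. The tight junction scaffold Tjp1 rose by 2.11 (SE 0.61, FDR 0.0371) from a mean of 0.659 CPM in Het and 0.440 CPM in KO, and it was higher in the GFP+ cells of 6 of 6 recipients. Lsr, the other angulin tested, did not pass (-0.46, SE 0.25), and Ildr2 was too low to test.

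Of 16 F-BAR genes tested besides Gas7, 5 were higher and 0 lower: Fchsd1 (0.53, SE 0.15), Gmip (0.62, SE 0.18), Pacsin1 (1.78, SE 0.49), the tyrosine kinase Fer (2.36, SE 0.46) and Pstpip2 (2.50, SE 0.56). Fer was low, going from 0.431 ± 0.149 to 2.30 ± 0.546 CPM in Het and from 0.377 ± 0.0691 to 2.47 ± 2.26 CPM in KO. Pstpip2, which is best known from macrophages, reached 6.86 ± 2.89 CPM in Het GFP+ and 2.82 ± 2.58 CPM in KO GFP+, and the part of myeloid transcripts in this was not tested. Of 23 Rac and chimaerin signalling genes, 3 were higher and 1 lower. The diacylglycerol kinase Dgkz, which removes the lipid that activates chimaerins, rose by 1.00 (SE 0.23, FDR 0.0185), from 278 ± 44.0 to 507 ± 139 CPM in Het and from 343 ± 33.8 to 757 ± 389 CPM in KO. Arhgap9 (0.45, SE 0.14) and the Rac exchange factor Tiam2 (1.77, SE 0.47) were also higher. Tiam2 was low too, going from 1.29 ± 0.947 to 3.81 ± 1.32 CPM in Het and from 0.397 ± 0.296 to 1.86 ± 1.00 CPM in KO. Rasgrp1, a Ras exchange factor activated by the same lipid, fell by 0.53 (SE 0.13, FDR 0.0227). Rac2, the most abundant of this list per kilobase, was not called (-0.41, SE 0.14, FDR 0.0639).

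Among the enzymes' relatives, Padi4 was the only other deiminase with enough reads, and it rose by 2.68 (SE 0.78, FDR 0.0374), to 20.1 ± 12.1 CPM in Het GFP+ and 12.4 ± 14.0 CPM in KO GFP+. Lrrk2, the closest relative of Lrrk1, rose by 2.47 (SE 0.64, FDR 0.0258), to 45.8 ± 29.9 and 27.1 ± 29.8 CPM. Both are known from granulocytes and other myeloid cells, and the part of such cells in these values was not tested. The ROCO relative Mfhas1 fell by 0.70 (SE 0.19, FDR 0.0294), from 66.8 ± 5.32 to 31.1 ± 3.31 CPM in Het (-1.11, SE 0.27) and from 67.3 ± 11.1 to 53.4 ± 23.6 CPM in KO (-0.29, SE 0.26). In the creatine system neither of the 2 tested genes passed: Gatm, the more abundant, stood at 0.37 (SE 0.42), and the transporter Slc6a8 at -0.21 (SE 0.26). The other creatine kinases Ckm, Ckmt1 and Ckmt2 were too low to test.

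Likeness across the 12 libraries is described as Pearson r of log2 CPM without a test, since the libraries share recipients, depth and sort. Ildr1, Gas7 and Padi2 varied together (r 0.71 to 0.80) and opposite to Cass4 (r -0.93 with Gas7). Since values of these same libraries chose the genes, r among the chosen genes restates that choice in part. Shared control of these genes was not tested. Eomes itself tracked Lrrk1 (r 0.89) and Ckb (r -0.90) most closely, and Ildr1 (r 0.24) and Chn2 (r 0.11) least. Eomes counts separated the sorts in both genotypes, so r with Eomes does not rank the genes by dependence on EOMES. Among 10434 genes, those most like Lrrk1 were Gramd4 (r 0.96), Bid (0.95) and Cd244a (0.95). Ckb was most like Gstt1 (0.94), Dph7 (0.93) and Gpr34 (0.92), and Gas7 most like Gm45837 (0.95), Prr5l (0.92) and Lpin1 (0.91). Cass4 was most like Arnt2 (0.94), Zfp683 (0.93) and Timp2 (0.90), and Ildr1 most like Plekha2 (0.93), Gpr155 (0.91) and Nccrp1 (0.89). For Chn2 the 3 were Fam124a (0.91), Dennd5a (0.90) and Plxna3 (0.89), and for Padi2 they were Mif4gd (0.85), Ptpn22 (0.84) and Gimap5 (0.82).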

How the data were processed

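RNA from 12 libraries of sorted mouse CD4+ T cells was depleted of ribosomal RNA and made into stranded libraries, per the labels' protocols. The submitters' processing notes name bcl2fastq 1.8.4, TopHat2 2.0.13, featureCounts 1.5.0-p1, DESeq2 1.6.1 and the build mm10; the strand setting of the counting is not given in the sources used here. The authors deposited whole-number counts per gene, not normalized, and result tables that list, per the file headers, mean normalized counts (a signal), log2 fold changes, a test statistic (a score) and p-values. In the deposited table of Het GFP+ against KO GFP+ the signs run KO minus Het, by comparison with the counts.

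Counts were tested with edgeR 4.0.16 in R 4.3.3 (quasi-likelihood F-test, TMM, filterByExpr with minimum count 10 and minimum total 15, 13238 genes, 1 mean per group over all 12 libraries, two-sided, Benjamini-Hochberg FDR 0.05). The procedure was run on simulated counts with changes set in Het GFP+ only. The simulated libraries were independent of one another, so that run does not cover the pairing by recipient. SEs were derived from the fold change and F. Alternatives were other size factors, DESeq2 1.42.0, limma-voom 3.58.1, other filters, the 2 groups compared alone, a recipient block and single libraries left out. Per the design text, a number marks a shared recipient within a genotype; deviations of such libraries from group means correlated with r 0.547, 0.241 and 0.617 in Het and 0.507, 0.506 and 0.263 in KO. P-values of the main fit treat the 12 libraries as independent and rest on the spread between libraries of a group, estimated over all 4 groups. The fits with a recipient block take the pairing into account. Each genotype had 3 recipients, and read counts carry no molecular identifiers.

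The 7 genes, the lists of relatives and the marker lists were chosen with earlier results of these data known. Text names the 7 genes, Eomes, list members that were called (or the most abundant of a list without a call) and, for each of the 7, the 3 genes with the highest r among those whose mean reached 5 CPM in a group; the genes beside the threshold, Rac2, Lsr and Slc6a8 were named after their values were seen. Some list members are included in the counts but not reported here by name.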

Additional observations from a re-analysis of the deposited data

Results flagged for a closer look

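Ildr1, Cass4 and Padi2 differed between GFP+ and GFP- cells in one direction in all 3 Het recipients and in the opposite direction in all 3 KO recipients. The mean within-recipient log2 change in Het minus that in KO was 2.67 for Ildr1, -2.15 for Cass4 and 1.47 for Padi2. The fitted change within KO was -1.17 (SE 0.30) for Ildr1, 0.28 (SE 0.26) for Cass4 and -0.53 (SE 0.26) for Padi2. By edgeR without the block none of these was called, and for Cass4 the KO libraries of both sorts overlapped. Of the 13238 genes tested, 160 (1.21%) had opposite directions in this sense. Its test is the interaction of reporter and genotype, which chose the genes and so gives no independent support: by edgeR the FDR was 0.149 for Ildr1, 0.355 for Cass4 and 1.00 for Padi2, and with the recipient block 0.0547, 0.00512 and 0.0670.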

How the results depend on the processing

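Ckb, Lrrk1 and Gas7 kept their call and direction for the mean change with the reporter in all 21 alternatives, Cass4 in 20 and Chn2 gained a call in 6. The number of the 7 genes called was 3 to 5 with single libraries left out, and the number of all genes called, 2395, became 6533 with voom sample weights, 5438 with the replicate block by recipient, 5596 with the recipient as a random block and 713 (without Het GFP- replicate 2) to 4650 (without KO GFP+ replicate 1) with libraries left out. Among the 7, pairing by recipient changed no call for that mean other than that of Chn2. Small signs turned: Ildr1 in that mean (0.11) was -0.055 with voom sample weights and -0.074 (without KO GFP+ replicate 1) to 0.19 without single libraries. Gas7 within KO (0.02) was -0.039 without a low-count filter, -0.23 with sample weights and -0.18 to 0.36 without single libraries. Between GFP- groups without single libraries, Ildr1 ran from -0.056 to 0.24 and Gas7 from -0.18 to 0.35, and Chn2 in the interaction from -0.34 to 0.17. The cause was not tested.

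Counts of all genes depended on the fit. Het GFP+ against Het GFP- gave 457 calls, but 1189 with DESeq2, 897 without the filter, 2190 with sample weights, 2944 with the replicate block, 3249 with the random block and 88 to 360 without single libraries; the share higher was 52.7%, and 34.1% without Het GFP- replicate 2. Het GFP+ against KO GFP+ gave 14, but 95, 72 and 51 with DESeq2, no filter and sample weights, 2 from those groups alone and 3 to 7 without single libraries. KO GFP+ against KO GFP- gave 17, but 390 with DESeq2, 201 without the filter, 4 with limma-voom, 5808 with sample weights, 10 from those groups alone, 2349 with the replicate block, 1431 with the random block and 5 to 1760 without single libraries. Between the GFP- groups the 0 calls became 45, 26, 2, 81, 7 and 4 with DESeq2, no filter, limma-voom, sample weights, those groups alone and the random block, and 0 to 7 without single libraries; 1 of the 7 genes, Chn2, was called with DESeq2, no filter, sample weights and the random block. The interaction gave 1 call, but 11 with DESeq2, 6 without the filter, 2 without the most abundant features, 0 with limma-voom, 2 with sample weights, 10 with the replicate block, 7 with the random block and 0 to 1 without single libraries. Ildr1, Cass4 and Ckb rested on as few as 4, 18 and 7 reads in a GFP+ library, which limits their fold changes.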
